A study of Homo sapiens with 2 samples.

Results

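Collagens and laminins are the chains from which cells build their extracellular matrix, and the genes examined here are all those whose symbol names a collagen chain (COL followed by a chain code) or a laminin chain (LAMA, LAMB or LAMC). There were 56 of them, 44 collagens and 12 laminins, among the 33538 genes that had been counted. Single-cell RNA sequencing had been done on H1, a widely used human embryonic stem cell (hESC) line, with 1 library for WT and 1 for GATA3 KO. Both were grown on Matrigel in mTeSR1, a medium that maintains pluripotency, and received BMP4 (bone morphogenetic protein 4, a differentiation signal) at 50 ng/ml for 48 h. WT cells were unmodified H1. The GATA3 KO cells were KO-GATA3-06, 1 clone of H1 edited by Cas9 at GATA3, which encodes a transcription factor. It was derived from an H1 line that carries a doxycycline-inducible Cas9 cassette in the AAVS1 locus, so genotype, clone and cassette cannot be told apart. The treatment text of the WT library gives 1 h of BMP4, in conflict with the 48 h of its title and duration label, and the labels were followed. The comparison asks how the matrix genes of BMP4-treated hESCs differ when GATA3 has been targeted. With a single library on each side no test was made, and every interval is a 95% interval for counting error alone.

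Collagen chains wind into triple helices in the endoplasmic reticulum, where hydroxylases and chaperones act on them, and are secreted. Type IV collagen forms the network of basement membranes, the sheets on which epithelia sit, together with laminins, which are trimers of an α, a β and a γ chain and are bound by integrins at the cell surface. Fibrillar collagens such as types I, V and XI make up the fibres of connective tissue, and type IX collagen decorates the fibres of cartilage. Pluripotent stem cells are cultured on basement membrane proteins and make laminin chains themselves.

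The libraries held 3802 WT and 6221 GATA3 KO cells with medians of 50362 and 46083 unique molecular identifiers (UMIs, each standing for 1 captured transcript). After removal of cells with more than 7500 detected genes or more than 25% mitochondrial UMIs, 2519 and 4450 cells were kept, with 99587274 and 175285931 UMIs. Levels are UMIs per 1000000 UMIs of the kept cells (CPM). UMIs were read at the 3′ ends of transcripts, so CPM does not scale with transcript length and shows neither the isoform nor the start site. GATA3 transcripts stood at 12.7 CPM in WT and 10.9 CPM in GATA3 KO, and a 3′ count of this kind does not check whether the gene was disrupted. The libraries shared 8 cell barcodes. Summed counts cannot tell fewer expressing cells from less RNA per cell. Of 5 listed fibroblast or mesenchyme markers, DCN and LUM were near 0, with 0 and 1 UMIs in WT and 2 and 0 in GATA3 KO. PDGFRB stood at 2.95 CPM in WT and 2.62 CPM in GATA3 KO, and TWIST1 at 2.01 and 4.88 CPM. Of 3 listed endothelial markers, PECAM1 and CDH5 gave 0 and 3 UMIs in WT and 4 and 8 in GATA3 KO. The summed level of the 5 fibroblast markers was 78.7 CPM in WT and 221.9 CPM in GATA3 KO, of which THY1, also a surface protein of hESCs, made up 73.8 and 214.3 CPM. The summed level of the 3 endothelial markers was 81.6 and 41.4 CPM, nearly all of it KDR.

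Of the 56 genes, 23 reached 5 CPM in at least 1 library, 18 collagens and 5 laminins. The other 33 stayed under that minimum. No gene was at 0 in both libraries. Those nearest below the minimum were COL5A1 (4.93 CPM in WT, 2.44 in GATA3 KO), LAMC3 (2.60 and 2.81) and COL2A1 (1.85 and 2.77), and nearest above it was COL9A2 (4.34 and 6.77). At the low end, LAMB4 gave 0 and 1 UMIs. Among genes picked out after their values were seen, COL3A1, the collagen that accompanies type I in most connective tissue, gave 8 and 6 UMIs, and COL6A3, the third chain of the common form of type VI collagen, gave 0.743 and 1.00 CPM. The summed level was 423.0 CPM in WT and 462.0 CPM in GATA3 KO for the collagens, and 96.6 and 109.9 CPM for the laminins.

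The genes of type IV collagen over the minimum lie head to head in pairs that share the DNA between their starts. In GRCh38, COL4A1 (ENSG00000187498) starts at position 110307157 of chromosome 13 on the minus strand and COL4A2 (ENSG00000134871) at 110307284 on the plus strand, 127 bases away. On the X chromosome, COL4A6 (minus strand, nearer start 108439458) and COL4A5 (plus strand, 108439838) lie 380 bases apart, and the other annotated start of COL4A6 is 1416 bases from that of COL4A5. The promoter windows of these genes are shown with those of COL13A1, the gene with the largest difference between the libraries, and COL11A1, the gene that differed most between TFAP2A-only and SOX2-only cells of GATA3 KO, classes described with the markers. Each window runs from 250 bases before to 50 bases after the start, 5′ to 3′ on the gene's strand, from RefSeq on GRCh38.p14. Capitals mark the GC box (GGGCGG), the CCAAT box (CCAAT), the TATA box (TATAAA) and the GATA site (AGATAA or AGATAG, and also TGATAA or TGATAG) on either strand, and neighbouring GC boxes can overlap.
COL4A2: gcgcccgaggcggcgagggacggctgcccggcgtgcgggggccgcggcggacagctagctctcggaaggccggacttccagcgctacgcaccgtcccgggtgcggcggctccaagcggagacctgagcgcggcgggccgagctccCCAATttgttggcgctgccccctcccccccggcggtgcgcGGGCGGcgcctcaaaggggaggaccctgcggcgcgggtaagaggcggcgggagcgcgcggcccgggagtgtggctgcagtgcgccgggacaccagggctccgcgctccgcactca
COL4A5: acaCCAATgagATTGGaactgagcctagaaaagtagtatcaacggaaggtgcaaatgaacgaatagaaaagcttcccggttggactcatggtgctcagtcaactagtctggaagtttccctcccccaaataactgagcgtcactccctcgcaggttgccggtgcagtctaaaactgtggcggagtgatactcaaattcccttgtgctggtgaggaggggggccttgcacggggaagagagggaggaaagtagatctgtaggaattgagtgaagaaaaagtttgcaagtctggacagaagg
COL4A6: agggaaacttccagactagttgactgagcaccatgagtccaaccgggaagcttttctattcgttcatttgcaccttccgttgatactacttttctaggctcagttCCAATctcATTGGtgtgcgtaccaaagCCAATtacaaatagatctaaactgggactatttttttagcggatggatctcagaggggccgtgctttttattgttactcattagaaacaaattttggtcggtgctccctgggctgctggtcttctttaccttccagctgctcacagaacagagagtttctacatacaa
COL13A1: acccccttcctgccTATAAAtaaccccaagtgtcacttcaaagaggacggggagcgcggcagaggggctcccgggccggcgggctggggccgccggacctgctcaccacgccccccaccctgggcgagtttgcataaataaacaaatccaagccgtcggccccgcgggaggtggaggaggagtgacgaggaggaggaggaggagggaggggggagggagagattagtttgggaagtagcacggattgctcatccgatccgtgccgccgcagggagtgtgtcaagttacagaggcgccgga
COL11A1: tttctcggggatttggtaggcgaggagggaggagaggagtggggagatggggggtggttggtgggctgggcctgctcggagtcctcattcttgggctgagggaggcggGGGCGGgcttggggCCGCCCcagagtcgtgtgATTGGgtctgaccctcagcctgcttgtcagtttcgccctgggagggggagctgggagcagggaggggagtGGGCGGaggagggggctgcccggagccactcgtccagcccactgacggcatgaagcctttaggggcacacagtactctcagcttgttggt

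The COL4A2 window on chr13:110307034-110307333 (plus strand) shares 226 bases with that of COL4A1, read from the other strand. It holds a GC box and a CCAAT box. The COL4A5 window (chrX:108439588-108439887, plus strand) holds 2 CCAAT boxes, and that of the nearer COL4A6 start (chrX:108439409-108439708, minus strand) holds 3. These windows share 121 bases. In the COL11A1 window (chr1:103108473-103108772, minus strand) there are 3 GC boxes and a CCAAT box, and in the COL13A1 window (chr10:69801656-69801955, plus strand) a TATA box is the only match. RefSeq windows were matched for 41 of the 56 genes, and 16 of the 23 genes of at least 5 CPM had 19 windows among them. A GC box was found in 13 of the 19, against 45.0% of all 35116 windows of 300 bases. A CCAAT box was found in 6 (34.6% of all windows), a TATA box in 3 (11.5%) and a GATA site in 1 (24.97%), a second COL4A6 window. Overlapping windows were counted separately. The GC box and CCAAT box of COL4A2 also lie in the COL4A1 window, and the 2 CCAAT boxes of COL4A5 are among the 3 of COL4A6. The median GC content of the 19 windows was 66.3%, against 58.7% over all windows. A match is a run of letters in the window, not a measured site.

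COL4A1 and COL4A2, which encode the chains of the ubiquitous basement membrane network, stood at 24.1 CPM (23.2 to 25.1) and 22.6 CPM (21.6 to 23.5) in WT, with intervals that overlap. In GATA3 KO they stood at 24.4 CPM (23.7 to 25.2) and 27.4 CPM (26.6 to 28.2). Differences between the libraries are given as log2 of (CPM + 1) in GATA3 KO over WT, a scale that understates differences of low genes. On it COL4A1 gave 0.02 (−0.05 to 0.09), an interval that spans 0, and COL4A2 gave 0.27 (0.20 to 0.34). The other head-to-head pair was lower. COL4A5 stood at 10.0 CPM in WT and 7.90 CPM in GATA3 KO (log2 −0.31, −0.42 to −0.20), and COL4A6 at 7.49 and 8.26 CPM (0.13, 0.01 to 0.24). The signs for COL4A1, COL4A2 and COL4A6 turned negative after correction for GC content (−0.33, −0.23 and −0.22), and those of COL4A1 and COL4A6 also did so over all deposited cells (−0.08 and −0.02).

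The laminins over the minimum were 2 α chains, 2 β chains and 1 γ chain, the set from which the laminins of pluripotent and early embryonic cells are assembled. LAMC1, the common γ chain, was the highest at 44.6 CPM (43.3 to 46.0) in WT and 47.1 CPM (46.1 to 48.1) in GATA3 KO. LAMB1 stood at 15.4 and 14.6 CPM, with a log2 difference of −0.07 whose interval (−0.16 to 0.01) spans 0. The α chains LAMA1, of early embryonic basement membranes, and LAMA5, of hESCs and many epithelia, stood at 11.1 and 10.6 CPM in WT and at 13.3 and 14.8 CPM in GATA3 KO. LAMC1 thus stood above each α and β chain in both libraries. LAMB2 had the largest laminin difference, with 7.45 CPM (6.92 to 8.01) in WT, 12.4 CPM (11.9 to 13.0) in GATA3 KO and a log2 value of 0.67 (0.56 to 0.78). Among the 20 nearest genes of at least 5 CPM on its chromosome the median was 0.51. For each of the other 22 genes that median was within 0.5 of 0, and the part of the surrounding stretch in the LAMB2 value was not tested. Summed over all 12 laminins, the log2 difference was 0.18 (0.15 to 0.22). After correction for GC content the sum gave −0.0420, LAMB2 0.20, LAMA5 −0.06 and LAMC1 −0.04.

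**Figure D1:**
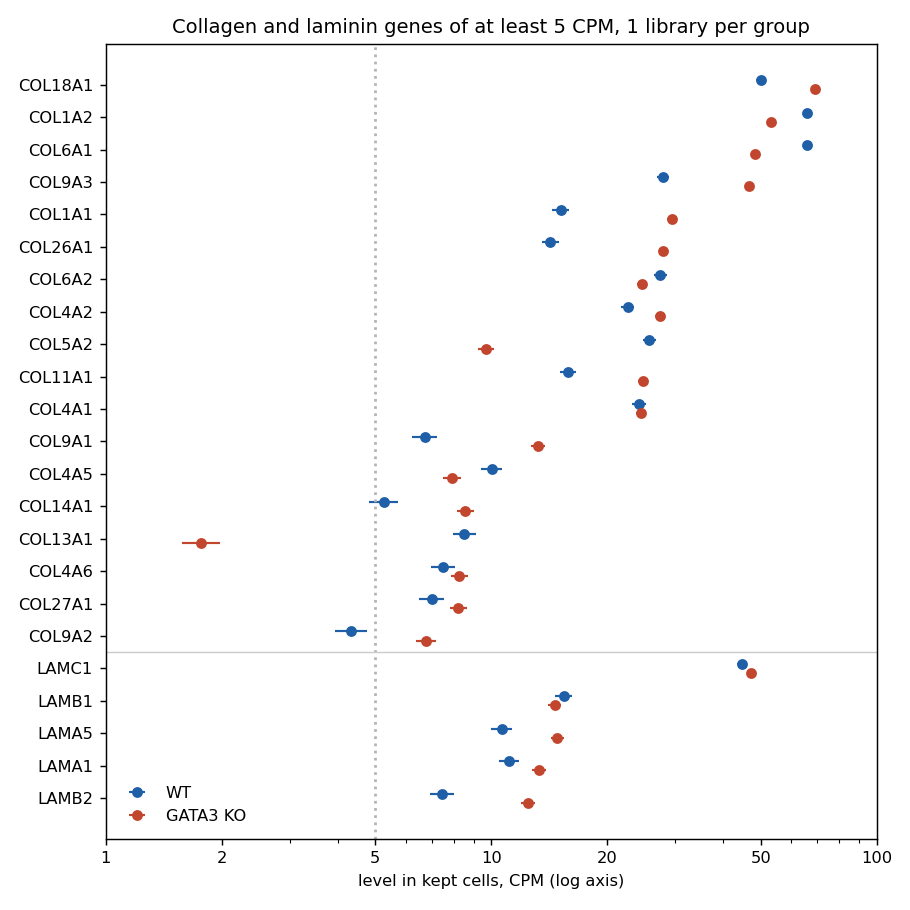
Level in kept cells in CPM (log axis) of the 18 collagen genes, above the line, and the 5 laminin genes, below it, in the WT library (blue) and the GATA3 KO library (red). Bars are 95% Poisson intervals of the counts, and the dotted line is the 5 CPM minimum. COL13A1 (8.52 and 1.77 CPM) and COL5A2 (25.7 and 9.66 CPM) show the widest gaps, and COL4A1 the narrowest.

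The largest differences between the libraries were those of COL13A1 and COL5A2, both lower in GATA3 KO. COL13A1 (ENSG00000197467, chromosome 10, 69801880 to 69964275 in GRCh38) encodes a collagen that spans the plasma membrane. It stood at 8.52 CPM (7.95 to 9.11) in WT and 1.77 CPM (1.58 to 1.98) in GATA3 KO, a log2 difference of −1.78 (−1.91 to −1.65). COL5A2 (ENSG00000204262, chromosome 2, 189031898 to 189225312), a chain of the fibrillar type V collagen that joins type I fibres, stood at 25.7 CPM (24.7 to 26.7) in WT and 9.66 CPM (9.21 to 10.1) in GATA3 KO, with a log2 value of −1.32 (−1.41 to −1.24). COL5A1, its partner chain under the minimum, was also at the lower level in GATA3 KO. COL5A3, another type V chain under the minimum, was at the higher level there (1.39 CPM in WT, 2.44 in GATA3 KO). COL13A1 and COL5A2 were 2 of 23 genes lower by 2-fold or more, against 2.09% of all 9979 genes of at least 5 CPM. None of the 23 was higher by 2-fold, against 2.43% of all genes.

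Smaller differences were common in both directions. The counting interval lay above 0 for 15 of the 23 genes, 11 collagens and 4 laminins, against 50.6% of all genes, and below 0 for 6 collagens, against 37.4% of all genes. The remaining 2, COL4A1 and LAMB1, had intervals that span 0. At this depth an interval clear of 0 is therefore the usual case and says little about a gene. The median log2 difference of the 23 genes was 0.24, against 0.08 over all genes tested. After the median of genes of like GC content had been subtracted from each, 9 of the 23 were above 0 in place of 16, and the median was −0.06. The same correction changed the split over all genes from 2.43% higher and 2.09% lower to 0.782% higher and 2.69% lower.

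Among the fibrillar collagens, the chains of type I differed in direction. COL1A1 stood at 15.2 CPM (14.4 to 15.9) in WT and 29.4 CPM (28.6 to 30.2) in GATA3 KO (log2 0.91, 0.83 to 0.99). COL1A2 stood at 66.0 CPM (64.4 to 67.6) and 53.0 CPM (52.0 to 54.1) (log2 −0.31, −0.36 to −0.27). Both signs stayed after correction for GC content, at 0.41 and −0.20. COL11A1, of the fibrils of cartilage, stood at 15.8 and 24.8 CPM (0.61, 0.54 to 0.69), and COL27A1, another fibrillar chain, at 7.02 and 8.22 CPM (0.20, or −0.30 after correction for GC content).

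All 3 chains of type IX collagen were higher in GATA3 KO. COL9A1 stood at 6.72 CPM in WT and 13.2 CPM in GATA3 KO (log2 0.88, 0.77 to 0.99), COL9A2 at 4.34 and 6.77 CPM (0.54, 0.41 to 0.68) and COL9A3 at 27.9 and 46.7 CPM (0.72, 0.66 to 0.79). COL14A1, of the same group of fibril-associated collagens, stood at 5.27 and 8.56 CPM (0.61, 0.48 to 0.73). After correction for GC content these values were 0.85, 0.04, 0.22 and 0.58, so those of COL9A1 and COL14A1, whose transcripts are 44.5% and 44.7% GC, moved least.

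In type VI collagen, which forms beaded filaments near basement membranes, the 2 chains over the minimum were lower in GATA3 KO over whole libraries. COL6A1 stood at 65.9 CPM (64.3 to 67.5) and 48.4 CPM (47.4 to 49.4) (log2 −0.44, −0.48 to −0.39), and COL6A2 at 27.5 and 24.6 CPM (−0.15, −0.22 to −0.08). After correction for GC content the log2 values were −0.94 and −0.66. COL18A1, a basement membrane collagen whose end fragment is endostatin, was the highest collagen in GATA3 KO at 69.2 CPM (68.0 to 70.4), from 50.1 CPM (48.7 to 51.5) in WT (0.46, 0.41 to 0.51, or −0.05 after correction for GC content). COL26A1, a collagen of the developing gonads, stood at 14.2 CPM (13.5 to 15.0) in WT and 27.9 CPM (27.2 to 28.7) in GATA3 KO (0.92, 0.84 to 1.01, or 0.42 after correction for GC content). Its interval overlaps those of COL1A1 and COL9A1, and no order among these 3 genes was read. Summed over all 44 collagens the log2 difference was 0.13 (0.11 to 0.14), and it was −0.20 after correction for GC content. The 4 genes with the largest CPM differences behind it differed in sign, with COL18A1 and COL9A3 higher and COL6A1 and COL5A2 lower in GATA3 KO.

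**Figure D2:**
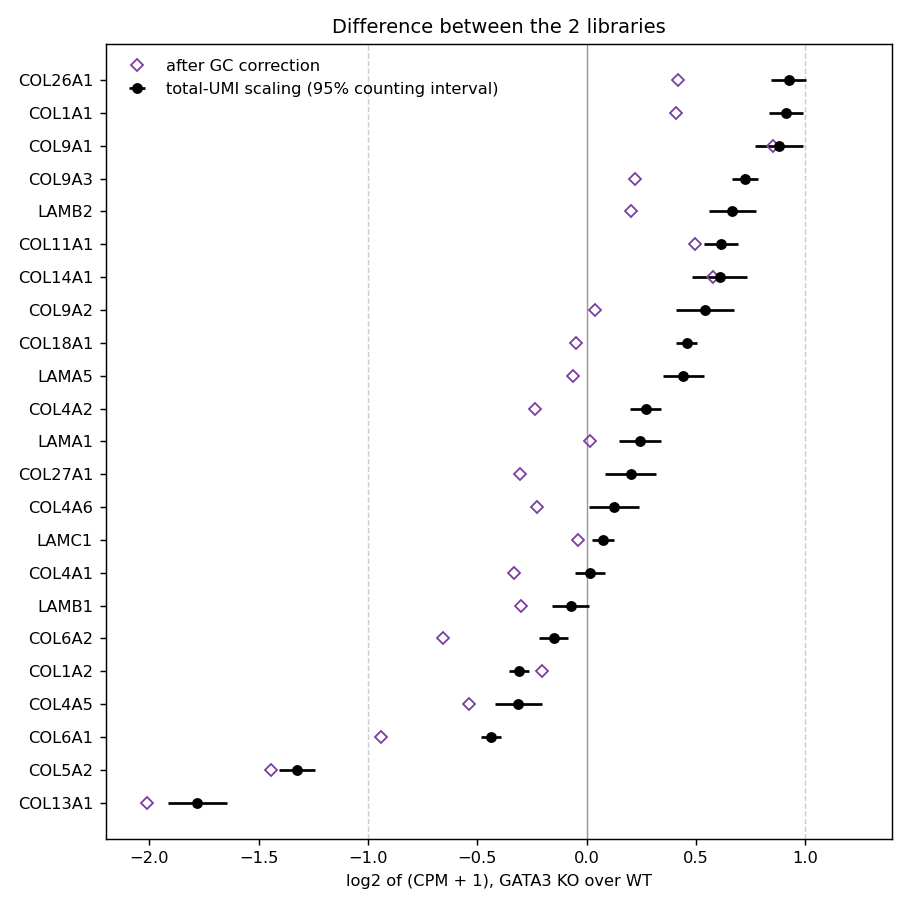
Difference between the libraries for the 23 genes, as log2 of (CPM + 1) in GATA3 KO over WT. Black points with bars are the values after scaling by total UMIs with their 95% counting intervals, open diamonds the values after correction for GC content, and dashed lines mark 2-fold. Only COL5A2 and COL13A1 lie beyond 2-fold, at −1.32 and −1.78, and the signs of LAMC1, COL4A6, COL4A1, COL27A1, COL4A2, LAMA5 and COL18A1 turn negative after the correction.

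The genes were next followed over cells marked by SOX2, MIXL1 and TFAP2A, which are expressed by undifferentiated or ectoderm-leaning cells, by primitive streak cells and by amnion- or surface ectoderm-like cells. Each cell was thinned at random to 10000 UMIs and called positive for a marker with at least 1 UMI, and cells positive for exactly 1 marker were compared by the CPM of their full counts. Cells under 10000 UMIs, 346 in WT and 412 in GATA3 KO, were left out. SOX2-only cells numbered 963 of 2173 in WT and 3045 of 4038 in GATA3 KO. MIXL1-only cells numbered 416 and 17, and TFAP2A-only cells 122 and 337. A further 317 and 438 cells held several markers and 355 and 201 held none. Most other markers of the MIXL1-only and TFAP2A-only classes went with their class, while pluripotency genes differed less between classes. For POU5F1, NANOG, DPPA4, LIN28A and TDGF1 the sum was 2381 CPM in SOX2-only cells of WT. It was 1803 CPM in MIXL1-only and 1393 CPM in TFAP2A-only cells. The summed level of 5 primitive streak genes (EOMES, TBXT, MESP1, GSC and CER1) was 543.5 CPM in MIXL1-only and 23.1 CPM in SOX2-only cells of WT, and that of 5 amnion genes (GATA2, GATA3, HAND1, ISL1 and KRT7) was 250.5 CPM in TFAP2A-only and 12.3 CPM in SOX2-only cells. Some did not. POU5F1, a pluripotency factor, stood at 845 CPM or more in these classes of both libraries, KRT7 at 9.06 CPM in SOX2-only and 8.27 CPM in TFAP2A-only cells of GATA3 KO, and NANOG at 125.9 CPM in MIXL1-only and 56.1 CPM in SOX2-only cells of GATA3 KO. Median depth was alike, between 44711 and 50817 UMIs per cell over the 6 classes. The GATA3 KO MIXL1-only class rests on 17 cells, and its values have wide intervals.

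COL9A1 and COL14A1 went with SOX2. A gene was said to go with a class when its CPM + 1 there was at least 2-fold that in each of the other 2 classes. In WT, COL9A1 stood at 10.6 CPM (9.68 to 11.7) in SOX2-only, 2.98 CPM (2.27 to 3.84) in MIXL1-only and 1.15 CPM (0.421 to 2.50) in TFAP2A-only cells. In GATA3 KO it stood at 15.1 CPM (14.4 to 15.8), 5.88 CPM (1.91 to 13.7) and 5.12 CPM (4.05 to 6.39). COL14A1 stood at 8.32 CPM in SOX2-only, 2.37 CPM in MIXL1-only and 2.30 CPM in TFAP2A-only cells of WT. In GATA3 KO it stood at 10.1 CPM in SOX2-only and 2.49 CPM in TFAP2A-only cells, and the 17 MIXL1-only cells held no UMI of it, where 3 UMIs would have been 3.53 CPM. These 2 genes of 23 went with SOX2 in both libraries, against 1.41% of all genes in WT and 1.96% in GATA3 KO. Under 6 alternatives the call for COL9A1 held in 6 in WT and 2 in GATA3 KO, and that for COL14A1 in 5 and 4. COL1A1 was also highest in SOX2-only cells, though short of the rule, at 21.4 CPM against 6.86 and 12.8 CPM in WT and at 33.7 CPM against 17.6 and 13.3 CPM in GATA3 KO. Among the alternatives, COL1A1 met the rule in GATA3 KO with at least 2 marker UMIs, at 5000 UMIs and at 20000 UMIs. It also did so there with another seed and without the upper gene limit.

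COL11A1 went with TFAP2A. Its log2 difference of TFAP2A-only over SOX2-only cells, 1.88 (1.66 to 2.09) in WT and 2.52 (2.42 to 2.62) in GATA3 KO, was the highest of the 23 genes in GATA3 KO and second to that of COL9A2 (1.93, 1.53 to 2.32) in WT. In WT it stood at 47.0 CPM (41.4 to 53.3) in TFAP2A-only cells against 12.0 CPM (11.0 to 13.1) in SOX2-only and 9.99 CPM (8.65 to 11.5) in MIXL1-only cells. In GATA3 KO it stood at 86.9 CPM (82.3 to 91.7) against 14.3 CPM (13.7 to 15.0) and 25.9 CPM (16.2 to 39.2). The intervals of the TFAP2A-only class overlap those of no other class in either library. TWIST1, of the fibroblast or mesenchyme marker list, was also higher in TFAP2A-only cells, at 8.22 CPM in WT and 27.5 CPM in GATA3 KO, against 0.86 and 1.03 CPM in SOX2-only cells. DCN and LUM were at 0 in the TFAP2A-only cells of both libraries, and the part of such cells in the COL11A1 values was not tested.

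The other genes that went with TFAP2A were COL9A2 and COL4A6 in WT and COL4A6 and COL4A5 in GATA3 KO. Under 6 other class definitions or cell filters the call for COL9A2 held in 4, that for COL4A6 in 1 in WT and 2 in GATA3 KO, and that for COL4A5 in 1. COL9A2 stood at 12.0 CPM in TFAP2A-only against 2.43 CPM in SOX2-only and 4.79 CPM in MIXL1-only cells of WT. COL4A6 stood at 16.4 CPM against 5.71 and 7.31 CPM in WT, and at 18.7 CPM against 6.60 and 5.88 CPM in GATA3 KO. Its head-to-head neighbour COL4A5 leaned the same way, at 15.9 CPM against 9.04 and 9.43 CPM in WT and at 15.2 CPM against 6.72 and 4.70 CPM in GATA3 KO. Although COL9A3 stayed short of the rule, it stood at 48.8 CPM in TFAP2A-only against 25.2 and 22.5 CPM in WT, and at 102.7 CPM against 38.0 and 70.6 CPM in GATA3 KO. The COL4A1 and COL4A2 pair did not lean this way, with 24.7 and 25.6 CPM in TFAP2A-only and 25.6 and 24.1 CPM in SOX2-only cells of WT. In all, 3 genes went with TFAP2A in each library, against 1.69% of all genes in WT and 2.2% in GATA3 KO.

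In WT the genes of types V, VI and XIII were highest in MIXL1-only cells. COL5A2 stood at 47.4 CPM (44.4 to 50.6) in MIXL1-only, 25.1 CPM (20.9 to 29.7) in TFAP2A-only and 14.4 CPM (13.3 to 15.6) in SOX2-only cells. COL13A1 stood at 17.0 CPM (15.2 to 18.9), 8.99 CPM (6.60 to 12.0) and 4.18 CPM (3.60 to 4.84) in the same order. COL6A1 stood at 98.6 CPM (94.3 to 103) in MIXL1-only and 94.5 CPM (86.3 to 103) in TFAP2A-only cells, whose intervals overlap, and at 40.2 CPM (38.3 to 42.1) in SOX2-only cells. COL1A2 was also highest in MIXL1-only cells, at 87.2 CPM (83.2 to 91.4) against 71.0 CPM (63.9 to 78.6) in TFAP2A-only and 52.6 CPM (50.4 to 54.8) in SOX2-only cells, so the chains of type I collagen differed in their class as they did between libraries. None of the 23 met the 2-fold rule for MIXL1 in WT, against 0.691% of all genes. Among the alternatives, COL5A2 met it in WT with at least 2 marker UMIs, at 20000 UMIs, with another seed and without the upper gene limit. COL13A1 met it in WT with at least 2 marker UMIs and without the upper gene limit. COL6A2 met it in GATA3 KO, against 1.29% of all genes, on 48 UMIs in 17 cells. That call held in 1 of 6 alternatives, and in 3 of them COL13A1 was the gene that met the rule instead.

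**Figure D3:**
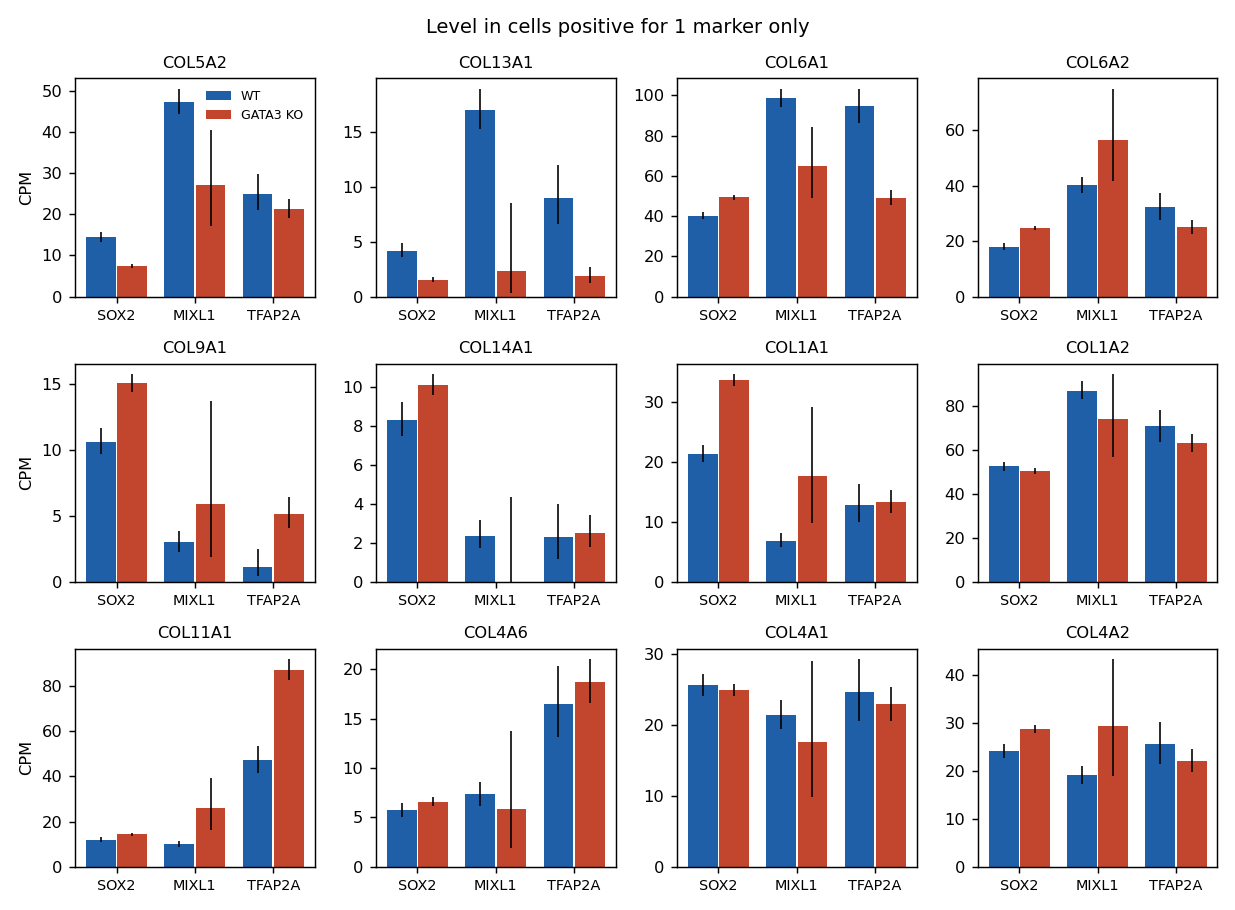
Level in CPM of 12 collagen genes in cells positive for SOX2 only, MIXL1 only or TFAP2A only, in WT (blue) and GATA3 KO (red), each panel with its own axis from 0. Black lines are 95% Poisson intervals, and those of the GATA3 KO MIXL1-only class rest on 17 cells. COL5A2, COL13A1 and COL6A1 stand high in MIXL1-only cells of WT, COL9A1, COL14A1 and COL1A1 in SOX2-only cells and COL11A1 and COL4A6 in TFAP2A-only cells, while COL4A1 and COL4A2 differ little.

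In WT, MIXL1-only over SOX2-only cells, 4 genes were higher by 2-fold or more (COL13A1, COL5A2, COL6A1 and COL6A2), against 1.94% of all genes, and 3 were lower (COL1A1, COL9A1 and COL14A1), against 2.21%. For TFAP2A-only over SOX2-only cells of WT, 4 were higher (COL11A1, COL9A2, COL4A6 and COL6A1), against 3.34%, and 2 were lower (COL9A1 and COL14A1), against 4.7%. In GATA3 KO the same contrast gave 7 higher, against 3.99%, namely COL11A1, COL9A2, COL9A3, COL5A2, COL4A6, COL4A5 and LAMB1. The 3 lower genes there were COL1A1, COL9A1 and COL14A1, against 5.93%. LAMB1 was the only laminin past 2-fold in these contrasts, at 29.9 CPM (27.2 to 32.8) in TFAP2A-only and 11.9 CPM (11.3 to 12.5) in SOX2-only cells of GATA3 KO, and at 20.7 and 12.3 CPM in WT. The other laminins stayed under 2-fold in these contrasts. In WT, LAMC1 stood at 37.5, 50.7 and 55.7 CPM in SOX2-only, MIXL1-only and TFAP2A-only cells, LAMA5 at 10.7, 8.22 and 18.7 CPM, LAMB2 at 6.80, 6.31 and 13.0 CPM, and LAMA1, which leaned the other way, at 12.0, 11.6 and 7.46 CPM. In GATA3 KO, LAMC1 stood at 46.7 CPM in SOX2-only and 54.4 CPM in TFAP2A-only cells, LAMA5 at 13.5 and 23.6 CPM, LAMB2 at 11.6 and 18.2 CPM, and LAMA1 at 14.2 and 7.48 CPM. Between SOX2-only and TFAP2A-only cells each of the 5 laminins leaned the same way in both libraries. Of the collagens not yet placed, COL18A1 stood at 49.2, 45.8 and 63.7 CPM in WT in SOX2-only, MIXL1-only and TFAP2A-only cells, COL26A1 at 13.5, 13.3 and 20.7 CPM, and COL27A1 at 7.42, 6.71 and 3.44 CPM. Summed collagens stood at 363.6 CPM in SOX2-only, 481.9 CPM in MIXL1-only and 547.2 CPM in TFAP2A-only cells of WT, and at 439.0, 555.2 and 620.1 CPM in GATA3 KO.

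Because MIXL1-only cells made up 19.1% of the thinned cells in WT and 0.421% in GATA3 KO, the libraries were also compared within classes. COL13A1 was lower in GATA3 KO in each of them, with a log2 difference of −1.03 (−1.23 to −0.81) in SOX2-only and −1.82 (−2.33 to −1.27) in TFAP2A-only cells, and with 17.0 CPM against 2.35 CPM (0.285 to 8.50) in MIXL1-only cells. COL5A2 gave −0.86 (−0.99 to −0.72) in SOX2-only cells and −0.23 (−0.51 to 0.06), an interval that spans 0, in TFAP2A-only cells. COL6A1 and COL6A2 had opposite signs in these classes. COL6A1 gave 0.29 (0.21 to 0.36) in SOX2-only and −0.93 (−1.09 to −0.77) in TFAP2A-only cells, and COL6A2 gave 0.44 (0.34 to 0.55) and −0.35 (−0.61 to −0.09). In WT, COL6A1 was thus at 94.5 CPM in TFAP2A-only against 40.2 CPM in SOX2-only cells, and in GATA3 KO at 49.1 CPM against 49.2 CPM. That difference between the classes was not tested. Correction for GC content, made only over whole libraries, lowered COL6A1 and COL6A2 by 0.505 each, more than their differences in SOX2-only cells. The TFAP2A-only classes also differed in other markers: SOX17 stood at 40.5 CPM in WT and 0.33 CPM in GATA3 KO, ISL1 at 41.7 and 22.3 CPM, and GATA2 at 8.03 and 37.8 CPM. Their part in the values within this class was not tested.

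COL26A1 was higher in GATA3 KO in both classes, by 0.85 (0.73 to 0.97) and 1.04 (0.75 to 1.33), as was COL9A3, by 0.57 (0.48 to 0.66) and 1.06 (0.87 to 1.25). COL9A1 gave 0.47 (0.33 to 0.60) and 1.51 (0.75 to 2.16), the latter on 6 WT and 78 GATA3 KO UMIs. COL11A1 gave 0.23 (0.10 to 0.37) and 0.87 (0.68 to 1.07). COL14A1 gave 0.25 (0.10 to 0.41) and 0.08 (−0.62 to 0.78), the latter an interval that spans 0. For COL1A1 the difference was 0.63 (0.53 to 0.73) in SOX2-only cells and 0.05 (−0.33 to 0.43) in TFAP2A-only cells. Within SOX2-only cells, 0 of the 23 genes were higher by 2-fold, against 1.75% of all genes, and 1 was lower (COL13A1), against 1.46%. Within TFAP2A-only cells 3 were higher (COL9A1, COL9A3 and COL26A1), against 3.51%, and 1 was lower (COL13A1), against 2.66%. No value within classes was corrected for GC content. Over whole libraries that correction lowered COL9A3 from 0.72 to 0.22 and COL26A1 from 0.92 to 0.42.

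**Figure D4:**
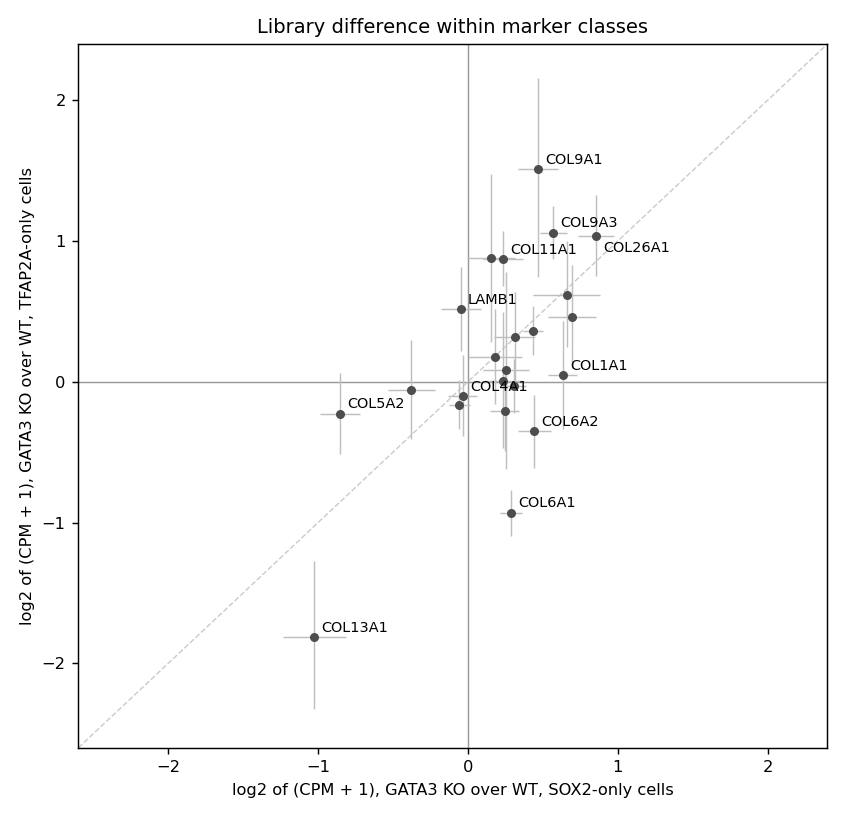
Difference between the libraries, as log2 of (CPM + 1) in GATA3 KO over WT, within SOX2-only cells (horizontal axis) and within TFAP2A-only cells (vertical axis) for the 23 genes. Bars are 95% counting intervals, and the dashed line marks equal differences in both classes. None of the values was corrected for GC content. COL13A1 lies low on both axes (−1.03 and −1.82), COL26A1 high on both (0.85 and 1.04), and COL6A1 and COL6A2 lie right of 0 and below 0.

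When the class values of GATA3 KO were weighted by the shares of UMIs that the 5 classes (3 single-marker, several and none) held in WT, COL13A1 gave −1.65 and COL5A2 −0.85. COL26A1 gave 1.06, COL9A3 0.93, COL9A2 0.91, LAMB2 0.88 and COL11A1 0.84. COL9A1 gave 0.61 and COL14A1 0.15, against 0.88 and 0.61 over whole libraries. One gene was then past 2-fold higher (COL26A1), against 1.99% of all genes, and 1 lower (COL13A1), against 1.55%, with a median of 0.15 over the 23. Under the alternatives that median ran from 0.18 without the upper gene limit to 0.24 with another seed. None of the values at equal makeup was corrected for GC content. MIXL1-only cells held 20.2% of the UMIs in WT, so the values at equal makeup lean on the 17 GATA3 KO cells of that class.

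Most of the genes were seen in a minority of cells at 10000 UMIs. COL1A2 was detected in 46.3% of thinned WT cells (44.2 to 48.5) and 38.4% of thinned GATA3 KO cells (36.9 to 39.9), and COL18A1 in 39.3% (37.2 to 41.4) and 48.5% (47.0 to 50.1). Without thinning these shares were 76.9% and 74.7% for COL1A2 and 76.0% and 82.4% for COL18A1. COL13A1 was detected in 7.55% and 2.06% of thinned cells and COL5A2 in 20.6% and 8.62%. No cell class here is known to lack these genes, so the share that free RNA would give was not measured. The variance of the thinned counts over their mean, which is 1 for counts spread evenly at random, was highest for COL11A1 in GATA3 KO (1.64), COL5A2 in WT (1.39) and COL6A1 in WT (1.32), genes that also differed between classes. Chains that assemble together were barely correlated from cell to cell. Pearson's r of log(1 + thinned count) was 0.05 in WT and 0.002 in GATA3 KO for COL4A1 with COL4A2, and 0.11 and 0.03 for LAMB1 with LAMC1. In counts this sparse such values are no finding.

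Of the listed genes that modify, bind or degrade these chains, none of at least 5 CPM was past 2-fold in either direction on log2 of (CPM + 1). Nearest to it, and picked out after their values were seen, were PLOD2, a lysyl hydroxylase of collagen, at 42.7 CPM in WT and 21.2 CPM in GATA3 KO (−0.98, −1.04 to −0.92), and P3H2, a prolyl hydroxylase, at 34.1 and 17.5 CPM (−0.92). P4HA1, a catalytic chain of prolyl hydroxylase, stood at 36.6 and 20.1 CPM (−0.83) and MMP9, a gelatinase, at 8.06 and 3.999 CPM (−0.86), while VWA1 and P3H3 gave 0.88 each. For PLOD2 and MMP9 the ratio of the CPM values is just over 2, and the added 1 CPM keeps them short of the call. FREM1, a basement membrane partner under 5 CPM, was past 2-fold lower on this scale. It stood at 3.23 CPM in WT and 0.827 CPM in GATA3 KO (−1.21, −1.37 to −1.05). The list medians that follow stand beside 0.08 over all genes. No value of the partner genes was corrected for GC content. Over whole libraries that correction lowered the median of the collagen and laminin genes of at least 5 CPM from 0.24 to −0.06. Its effect on the partner lists was not tested, so their medians are not read as higher levels in GATA3 KO. Of 15 basement membrane partners, 11 reached 5 CPM, with a median log2 difference of 0.32. FN1, the fibre-forming glycoprotein fibronectin, stood at 111.4 and 143.1 CPM, and SPARC, which binds collagen, at 100.4 and 122.3 CPM. Of 29 genes of collagen folding and cross-linking, 19 reached 5 CPM (median 0.24), among them PPIB, a prolyl isomerase of the endoplasmic reticulum, at 395.4 and 380.3 CPM, and P4HB, a subunit of prolyl hydroxylase, at 191.2 and 235.3 CPM. Of 13 receptors, 6 reached 5 CPM (median 0.46), led by ITGB1, the common integrin β chain, at 268.0 and 218.7 CPM and DAG1, the laminin receptor dystroglycan, at 46.9 and 56.5 CPM. Of 8 matrix proteases and inhibitors, 7 reached 5 CPM (median 0.30), among them TIMP1, a protease inhibitor, at 75.1 and 92.7 CPM and MMP2, a gelatinase, at 26.7 and 26.8 CPM.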

How the data were processed

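Single-cell RNA sequencing of 2 libraries, 1 per group, was analysed from raw UMI counts per gene and cell barcode, which the authors deposited after alignment and counting with Cell Ranger 3.0.2 against GRCh38 from 10x Genomics 3′ v3 libraries. Whether strand was used in counting is not given in the sources used here, and overlapping or near-identical genes can share reads. The deposited files hold all called cells, including those beyond the study's limits of 7500 genes and 25% mitochondrial UMIs, which were applied here. Doublets were not called, and only the gene limit acts on them. Samples were grouped by the deposited labels, and 0 columns of values were left unused.

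UMIs of kept cells were summed per library, divided by the total and given per 1000000 (CPM). Levels carry exact Poisson intervals, shares exact Clopper-Pearson intervals, and differences on log2 of (CPM + 1) the exact binomial interval of the 2 counts. Intervals are at 95%. Called means 2-fold or more, given beside the share of all 9979 non-mitochondrial genes of at least 5 CPM in either library. Thinning used random seed 11. The calculation of differences was tested on simulated data. Positions and transcript GC content came from GENCODE 44 by gene identifier, and promoter windows from RefSeq by symbol. Software was Python 3.11.15, numpy 2.4.6, scipy 1.17.1, pandas 2.3.3, matplotlib 3.10.9 and, for alternative TMM scaling factors, edgeR 4.0.16 in R 4.3.3. Alternatives covered the cell filter, scaling, pseudocount, GC content, minimum and classes. One of the cell filters left out the 5% of kept cells with most UMIs in each library.

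The genes, the lists of markers and partner genes and the alternatives were chosen with earlier results of these data known. Every collagen and laminin gene of at least 5 CPM in either library was named. Of the rest, the 3 highest and any at 0 in both libraries were to be named, and of each partner list the 2 highest in WT and any past 2-fold. Other genes named were chosen after their values were seen.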

Additional observations from a re-analysis of the deposited data

Results flagged for a closer look

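COL6A1 and COL6A2 were set apart because the difference between the libraries had opposite signs in 2 classes of cells, with counting intervals clear of 0. For COL6A1 it was 0.29 in SOX2-only and −0.93 in TFAP2A-only cells, and for COL6A2 0.44 and −0.35, on log2 of (CPM + 1) in GATA3 KO over WT. These values were not corrected for GC content. Over whole libraries that correction lowered each gene by 0.505, more than its value in SOX2-only cells. The difference between the classes was not tested, since each group has 1 library. With each of 6 other class definitions COL6A1 remained higher in TFAP2A-only than in SOX2-only cells of WT, by 0.94 to 1.44, and in GATA3 KO the value lay between −0.09 and 0.03. SOX17 stood at 40.5 CPM in TFAP2A-only cells of WT and 0.33 CPM in those of GATA3 KO, and its part was not tested.

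COL11A1 and COL9A3 were set apart because MIXL1-only against SOX2-only cells gave opposite signs in the libraries. The log2 difference was −0.25 in WT and 0.81 in GATA3 KO for COL11A1, and −0.16 and 0.88 for COL9A3. This difference was not tested either. The GATA3 KO values rest on 17 MIXL1-only cells, and with other class definitions they ran from −0.11 to 1.38 for COL11A1 and from −0.01 to 0.82 for COL9A3.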

How the results depend on the processing

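No paired analysis was possible because each group has 1 library. Of 207 values of single genes under the alternatives, 157 moved by less than their counting interval and 50 moved further. The correction for GC content turned the median of the 23 genes to −0.0613 and the summed collagen and laminin differences to −0.20 and −0.0420. The sums were 0.0688 and 0.125 over all deposited cells, 0.0647 and 0.109 without the upper gene limit, and 0.0839 and 0.0931 as means of per-cell CPM. No alternative cell filter, scaling, pseudocount, GC correction or minimum put a gene past 2-fold higher in the whole libraries. At equal class makeup COL26A1 was past it, at 1.06 without GC correction. Genes past 2-fold lower numbered 1 with per-cell means (COL13A1, with COL5A2 at −0.97) and 1 with a minimum of 20 CPM (COL5A2, COL13A1 being under it). Genes over the minimum numbered 36 at 1 CPM and 12 at 20 CPM. When a cell counted for each marker it held, TFAP2A patterns numbered 1 in each library and SOX2 and MIXL1 patterns in GATA3 KO 0, and no value at equal makeup exists because cells fall in several classes. MIXL1 patterns in WT numbered 2 with at least 2 marker UMIs and 2 without the upper gene limit (COL5A2 and COL13A1 in both). They numbered 1 at 20000 UMIs and 1 with another seed (COL5A2 in both). The MIXL1 pattern in GATA3 KO numbered 0 at 5000 UMIs. It was that of COL13A1 in place of COL6A2 with at least 2 marker UMIs, at 20000 UMIs and without the upper gene limit. Without the upper gene limit the SOX2 pattern in WT and the TFAP2A pattern in GATA3 KO each numbered 1. The COL11A1 pattern held in 6 of 6 alternatives in WT and 5 of 6 in GATA3 KO, that of COL9A1 in 6 and 2, that of COL14A1 in 5 and 4, and that of COL4A6 in 1 and 2. The cause of these shifts was not tested. The number of cells limits the MIXL1-only class of GATA3 KO, which has 17.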

Other observations

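Several partner genes differed between the cell classes, and those given here were chosen after their values were seen. FN1, which encodes fibronectin, stood at 529.4 CPM in TFAP2A-only, 76.1 CPM in MIXL1-only and 50.3 CPM in SOX2-only cells of WT, and at 879.0, 128.2 and 37.8 CPM in GATA3 KO. ITGA6, the α chain of the main laminin-binding integrin of hESCs, leaned the other way, at 66.6 CPM in SOX2-only, 20.8 CPM in MIXL1-only and 22.0 CPM in TFAP2A-only cells of WT, and at 73.6, 45.9 and 16.5 CPM in GATA3 KO. FREM2, a basement membrane protein, stood at 27.0 CPM in TFAP2A-only, 5.75 CPM in MIXL1-only and 8.30 CPM in SOX2-only cells of WT, and at 34.7, 8.23 and 7.21 CPM in GATA3 KO. Over whole libraries the log2 differences of FN1, ITGA6 and FREM2 were 0.36 (0.33 to 0.39), 0.46 (0.41 to 0.51) and 0.24 (0.13 to 0.35). All were under 2-fold, and none was corrected for GC content.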
